A study of Mus musculus with 50 samples.

Results

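The livers compared are 10 non-tumour livers of mice on the American lifestyle (ALIOS) diet, the 5 with the most Cd44 transcript and the 5 with the least. They were chosen by ranking the 11 non-tumour ALIOS livers on Cd44 CPM (the Cd44 count scaled to the library's total count) and leaving out the middle liver, N15. The series holds 50 bulk RNA-seq libraries of C3H/He mouse liver and liver tumour, all harvested at 48 weeks, with 12 non-tumour livers on control diet beside the 11 on ALIOS diet. ALIOS diet is rich in fat and trans-fat and is given with fructose in the drinking water, and control diet is lower in fat and without the sugar. None of the 10 livers, nor any control diet liver used here, came from an animal given the liver carcinogen DEN, and diet, strain (C3H/He) and time were the same in all 10 as labelled. The study's methods name C3H/He mice of more than one substrain and supplier, and the labels do not say which liver is of which. The labels number the livers and do not say which of them came from a mouse with tumours, which were caged together or which shared a sequencing lane. They also do not state that each liver came from a separate animal, so p-values measure the spread between these samples, which may be technical in part. High and low Cd44 are groups made from the data and are not groups of the study.

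CD44 is a cell surface receptor for hyaluronan, a sugar polymer of the matrix, and also binds osteopontin. In liver it is carried mainly by leukocytes, among them recruited monocytes and macrophages, by activated stellate cells and by bile duct and progenitor cells, while a resting hepatocyte carries little. Hepatocytes make up most of the RNA of a whole liver and run programmes with separate control: secreted plasma proteins, cytochrome P450 enzymes, amino acid and glucose metabolism, bile acid synthesis and lipid storage. One of these programmes, the male pattern of liver genes, depends on the pulses of growth hormone that males release, and its members include the major urinary proteins (Mup), the steroid enzyme Hsd3b5 and the organic anion carrier Slco1a1. A whole liver library mixes all cell types, so fewer cells of a type and less RNA per cell cannot be told apart.

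Cd44 (ENSMUSG00000005087.15, GRCm38 chr2:102811141-102901665, minus strand) reached 15.1, 15.02, 6.48, 5.96 and 5.61 CPM in the high livers N17, N19, N22, N18 and N23. It stood at 5.15, 5.14, 5.12, 3.70 and 2.05 CPM in the low livers N20, N14, N16, N21 and N13. N15, left out, was at 5.44 CPM, so the lowest high liver and the highest low liver hardly differed and the contrast lies between N17 and N19 at one end and N21 and N13 at the other. N17 and N19 stood apart from the rest of the ranking, and the counts and medians below are also given without them where they moved. In the control diet livers, Cd44 ran from 1.53 to 5.54 CPM. These values chose the livers and carry no test. The ranking used counts from the same libraries in which every other gene was measured, so whatever moved Cd44 in a library moved with the groups.

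**Figure D1:**
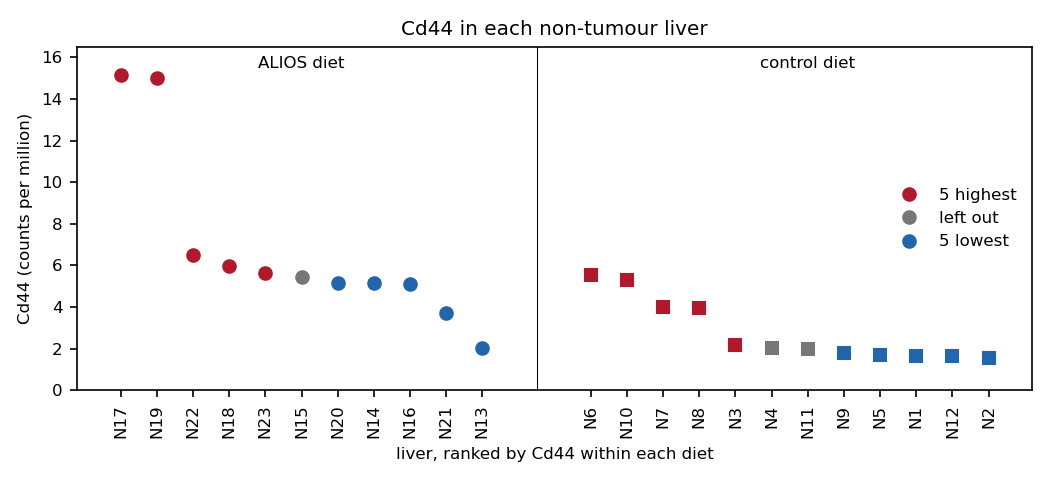
Cd44 (CPM, linear axis from 0) in each non-tumour liver, ranked within ALIOS diet (circles, left) and control diet (squares, right). Red marks the 5 highest, blue the 5 lowest and grey the livers left out. N17 and N19, at 15.1 and 15.02 CPM, lie far above the other 9 ALIOS livers.

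The 11 libraries held between 27602194 and 34682875 counts, and the total count did not separate the groups (exact permutation test, two-sided, p = 0.37, where 0.0079 is the smallest p that 5 against 5 allows). The share of counts in mitochondrial genes was 3.2 to 4.29% in the high livers and 3.82 to 4.54% in the low livers (exact permutation p = 0.095), and the 100 most abundant genes took 43.2 to 47.3% and 41.0 to 45.4% (exact permutation p = 0.18). The 4 liver markers Alb, Ttr, Apoa1 and Trf together held 62541 to 121045 CPM in the high livers and 78722 to 120149 CPM in the low livers, so all 10 libraries read as liver. Xist was at most 0.182 CPM and Ddx3y at least 59.2 CPM in all 10, as in male tissue. Ddx3y was at 59.2 to 70.9 CPM in the high livers and 74.5 to 87.5 CPM in the low livers, without overlap. The pancreas markers Prss2, Cpa1 and Cela1 summed to 17.3 to 54.9 CPM in the high and 25.6 to 54.4 CPM in the low livers, and those of fat (Adipoq, Lep and Retn) to at most 0.119 CPM. The kidney markers Kap, Slc34a1 and Umod summed to up to 5.18 CPM in the high and up to 3.10 CPM in the low livers, and their part in the results was not tested.

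The first question was which genes differed between both ends of the ranking. In the comparison of 5 with 5, 9 of 13798 genes were higher in the high Cd44 livers (0.0652%) and 78 were lower (0.565%) at an adjusted p under 0.05 (edgeR's quasi-likelihood test, Benjamini-Hochberg adjustment over all genes tested, Cd44 left out). None of the 87 was a member of the gene lists of hepatocyte, leukocyte or other programmes used here. The calls were near the threshold: 82 of the 87 adjusted p-values lay between 0.045 and 0.049, while 3472 genes had an unadjusted p under 0.05. Leaving out any one of N17, N22, N18, N23, N14, N16 or N13 ended every call, leaving out N21 kept 0 higher and 8 lower, and leaving out N17 and N19 together kept 0 higher and 2 lower. DESeq2 on the same livers called 561 higher and 821 lower, and scaling by upper quartiles or by column totals alone left 0 higher, with 4 and 39 lower.

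Among the genes called higher were 3 that serve the actin cytoskeleton or the myeloid cell surface. Clec4n (Dectin-2, a fungal sugar receptor of macrophages and dendritic cells) was at 8.31, 10.8, 6.5, 7.53 and 7.01 CPM in the high livers, in the order N17, N19, N22, N18 and N23 used throughout. It was at 3.18, 5.48, 3.63, 3.82 and 2.75 CPM in the low livers, in the order N20, N14, N16, N21 and N13 (log2 fold change 1.10 ± 0.20, SE, adjusted p = 0.049). Capzb, which caps actin filaments, was at 81.7, 84.4, 83.7, 84.8 and 84.1 against 70.6, 69.8, 68.0, 71.4 and 64.7 CPM (log2 fold change 0.29 ± 0.05, SE, adjusted p = 0.049). Arpc4, a subunit of the actin-branching Arp2/3 complex, was at 65.4, 61.6, 61.4, 64.1 and 64.6 against 54.7, 51.9, 49.6, 53.7 and 49.9 CPM (log2 fold change 0.29 ± 0.05, SE, adjusted p = 0.049). For each of these genes every high liver was above every low liver, but the change in the actin genes was small. The others were Gng11, Ptpn18, Atpif1 (the inhibitor of the mitochondrial ATP synthase), Clic1, Eif6 and 1810037I17Rik, with log2 fold changes among the named ones of 0.34 for Eif6 to 1.23 for Ptpn18.

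The genes called lower that are named here are those with the smallest p among the 78 with non-overlapping groups, leaving out unnamed gene models. Kdm6b and Kdm5d, which remove methyl groups from histones, fell by 0.65 and 0.50 on the log2 scale. Kdm5d lies on the Y chromosome, and the male marker Ddx3y was also lower in all high livers. Of all genes, 4.08% were lower without overlap. Chd7, a chromatin remodeller, fell by 0.52, and the splicing factor Srsf5 fell by 0.71. Firre, a long non-coding RNA kept in the nucleus, was at 5.43, 6.63, 6.15, 5.53 and 6.05 CPM in the high livers and 10.0, 10.9, 10.4, 9.16 and 14.2 CPM in the low livers (log2 fold change -0.87 ± 0.12, SE, adjusted p = 0.036). Col27a1, a fibrillar collagen gene, showed the smallest p of all, at 19.5, 24.2, 13.7, 21.6 and 14.2 CPM in the high livers. It was at 48.3, 50.1, 61.2, 43.0 and 58.8 CPM in the low livers (log2 fold change -1.48 ± 0.17, SE, adjusted p = 0.027), and no high liver reached the lowest of them. Adamts7, Atxn2, N4bp2 and Mtx3 were the others of these 10. The gene model A930004J17Rik fell by 1.36 on the log2 scale and had a smaller p than Kdm6b.

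Malat1 and gene length moved with these calls. Malat1, an abundant non-coding RNA kept in the nucleus and chosen for mention after its values were seen, was at 314, 486, 708, 235 and 626 CPM in the high livers and 786, 756, 1001, 1155 and 1474 CPM in the low livers (log2 fold change -1.12 ± 0.30, SE, adjusted p = 0.072), so the groups did not overlap although the difference missed the threshold. The 78 genes called lower spanned a median of 41173 bp of genome, against 21888 bp for all genes tested and 8784 bp for the 9 called higher. Over all genes tested, the median log2 fold change fell with span, from 0.13 in the shortest of 10 equal bins to -0.08 in the ninth bin, and turned back to -0.03 in the longest bin. The part of RNA quality or handling in the lower calls was not tested.

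To use all 11 livers and the size of the Cd44 differences, each gene was also fitted against log2 Cd44, and the result is a slope: the log2 change of a gene for each doubling of Cd44. This way 1135 of 14449 genes rose with Cd44 (7.86%) and 364 fell (2.52%), or 1067 and 177 with column totals alone. Of single livers, N17 and N13, at the top and the bottom of the ranking, mattered most to these calls. Without N17 and N19 edgeR called 0 genes in 9 livers, with 2193 at an unadjusted p under 0.05. Without N17 alone 396 were higher and 29 lower, and without N13 alone 551 and 92. Without N19 alone 1028 and 365 remained, and without N14 alone 987 and 279. Of the 87 genes called between 5 and 5, 24 were also called on the slope. Below, "rose" and "fell" are used for the slope in 11 livers, and members of lists are counted against 7.86% and 2.52%. The example genes are fixed anchors or were chosen from the lists after their values were seen.

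**Figure D2:**
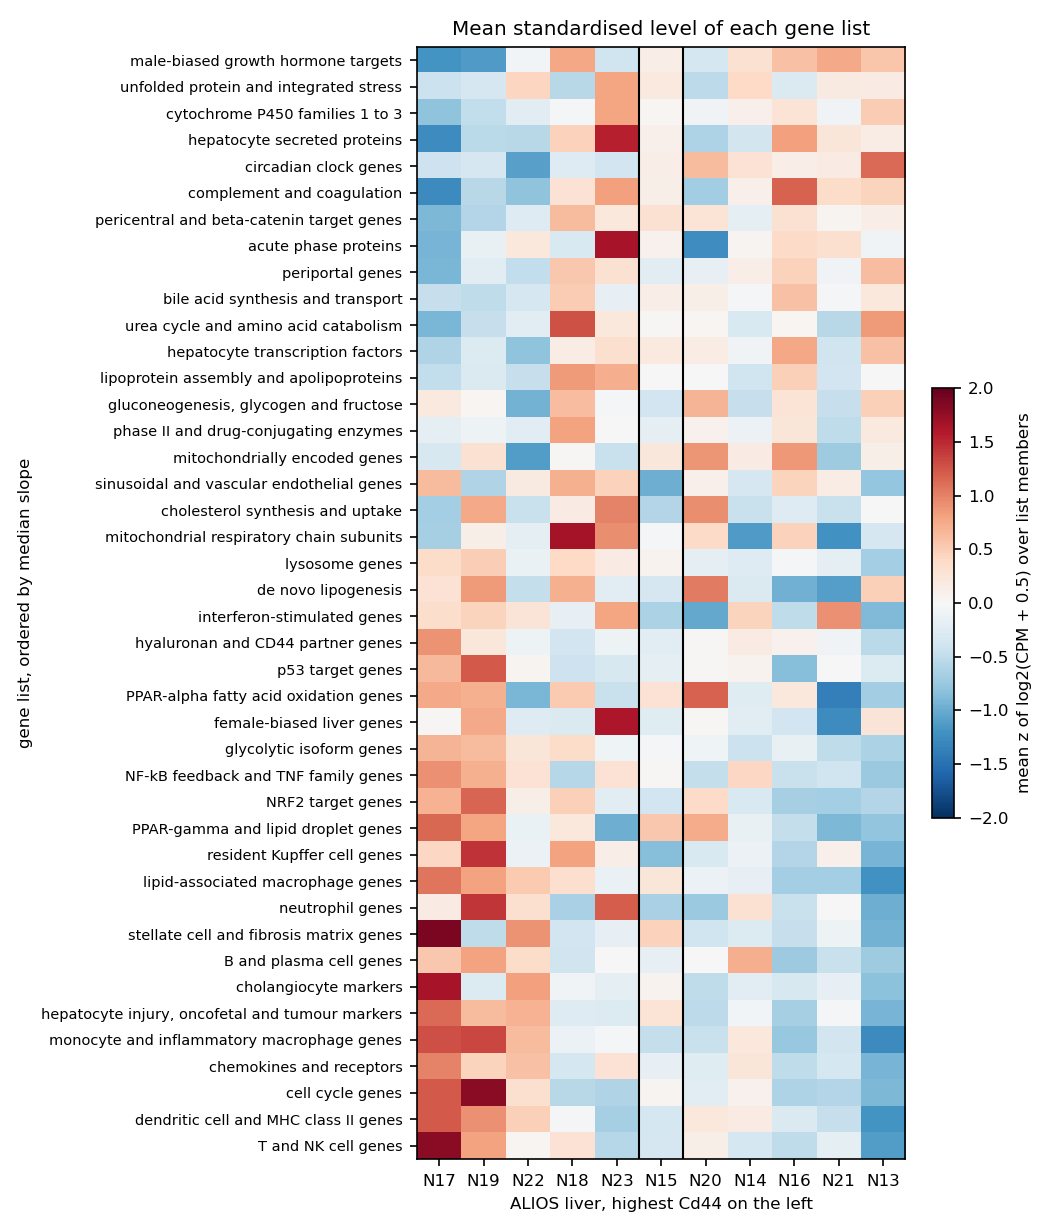
Mean standardised level (z of log2(CPM + 0.5) over the 11 livers, averaged over list members) of each gene list in each ALIOS liver, with livers ordered by Cd44 from left to right, lists ordered by median slope, and vertical lines around N15. N17 and N19 hold the lowest values of the male-biased growth hormone targets and the highest of the cell cycle genes.

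Of the hepatocyte lists, the male-biased growth hormone targets had the largest share of members called lower on the slope. Of 24 members tested, 10 fell with Cd44 (41.7%) and 0 rose, and the median slope was -0.49, beside 0.0016 over all genes. Hsd3b5, a male-specific steroid dehydrogenase, was at 4.45, 9.62, 60.6, 162 and 60.7 CPM in the high livers. It was at 36.2, 123, 163, 251.5 and 138 CPM in the low livers (slope -1.97 ± 0.49, SE, adjusted p = 0.024). N17 and N19 lay far below every other liver, and the remaining 3 high livers lay within the range of the low ones. Slco1a1, an uptake carrier for organic anions and bile acids, was at 95.9, 103, 295, 466 and 305 CPM in the high and 279, 499, 772, 602 and 547 CPM in the low livers (slope -1.07 ± 0.23, SE, adjusted p = 0.012). Mup12, a pheromone-binding protein secreted into urine, was at 58.1, 270.3, 1353, 1046 and 1902 CPM in the high and 573, 940.1, 2110.0, 3000.1 and 2896 CPM in the low livers (slope -1.66 ± 0.37, SE, adjusted p = 0.013). The pattern repeated that of Hsd3b5. In the control diet livers, where Mup12 ran from 1889.9 to 5193 CPM and Slco1a1 from 478 to 788 CPM, no liver was as low as N17 or N19. Other ALIOS livers also lay below these ranges, among the low ones N20 and N14 for Mup12 and N20 for Slco1a1. Summed, the male-biased list held 7161 to 14985 CPM in the high and 10131 to 17062 CPM in the low livers. The lowest control diet liver held 15361 CPM. Mup1, Mup2 and Mup7 (slopes -0.88, -0.78 and -1.73), the glucuronosyltransferases Ugt2b1 and Ugt2b38 (-0.47 and -1.61), the oxysterol hydroxylase Cyp7b1 (-1.07) and Cyp2u1 (-0.51) also fell. The Mup, Ugt2b, Cyp2c and Serpina3 genes are families of near-identical copies, so the split of reads between their members is uncertain.

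Not every male-biased gene followed. Mup20 (darcin), Elovl3 and Cyp2d9 did not pass the test, with slopes of 0.20, -0.48 and -0.11, and Igf1, the growth hormone target that circulates as a growth factor, had a slope of -0.13 ± 0.09 (SE, adjusted p = 0.34). Igf1 was at 525, 545, 618, 776 and 823 CPM in the high livers and 553, 756, 758, 570.0 and 714 CPM in the low livers, and the groups overlapped. Of the 19 female-biased liver genes tested, 0 passed in either direction, with a median slope of 0.19 and 11 slopes above 0. Cyp2a4, a female-biased steroid hydroxylase, was at 484, 686, 189, 195 and 1109 CPM in the high and 335, 163, 109, 53.01 and 276 CPM in the low livers, and the highest value was in N23. Without N17 and N19 the median slope of the male-biased list was -0.20 over 24 members and none passed the test, with Slco1a1 at -0.42, Hsd3b5 at -0.77 and Mup12 at -0.96. Leaving out N17 alone kept 1 call in the male-biased list, and leaving out N19 alone kept 2. With the Malat1 level as a further term in the slope fit, 1 of its 24 members fell, with a median slope of -0.58. Without both, the female-biased list had a median slope of 0.40. In the contrast of 5 with 5 its median log2 fold change was 0.80, beside -0.41 for the male-biased list, with 0 calls in either.

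**Figure D3:**
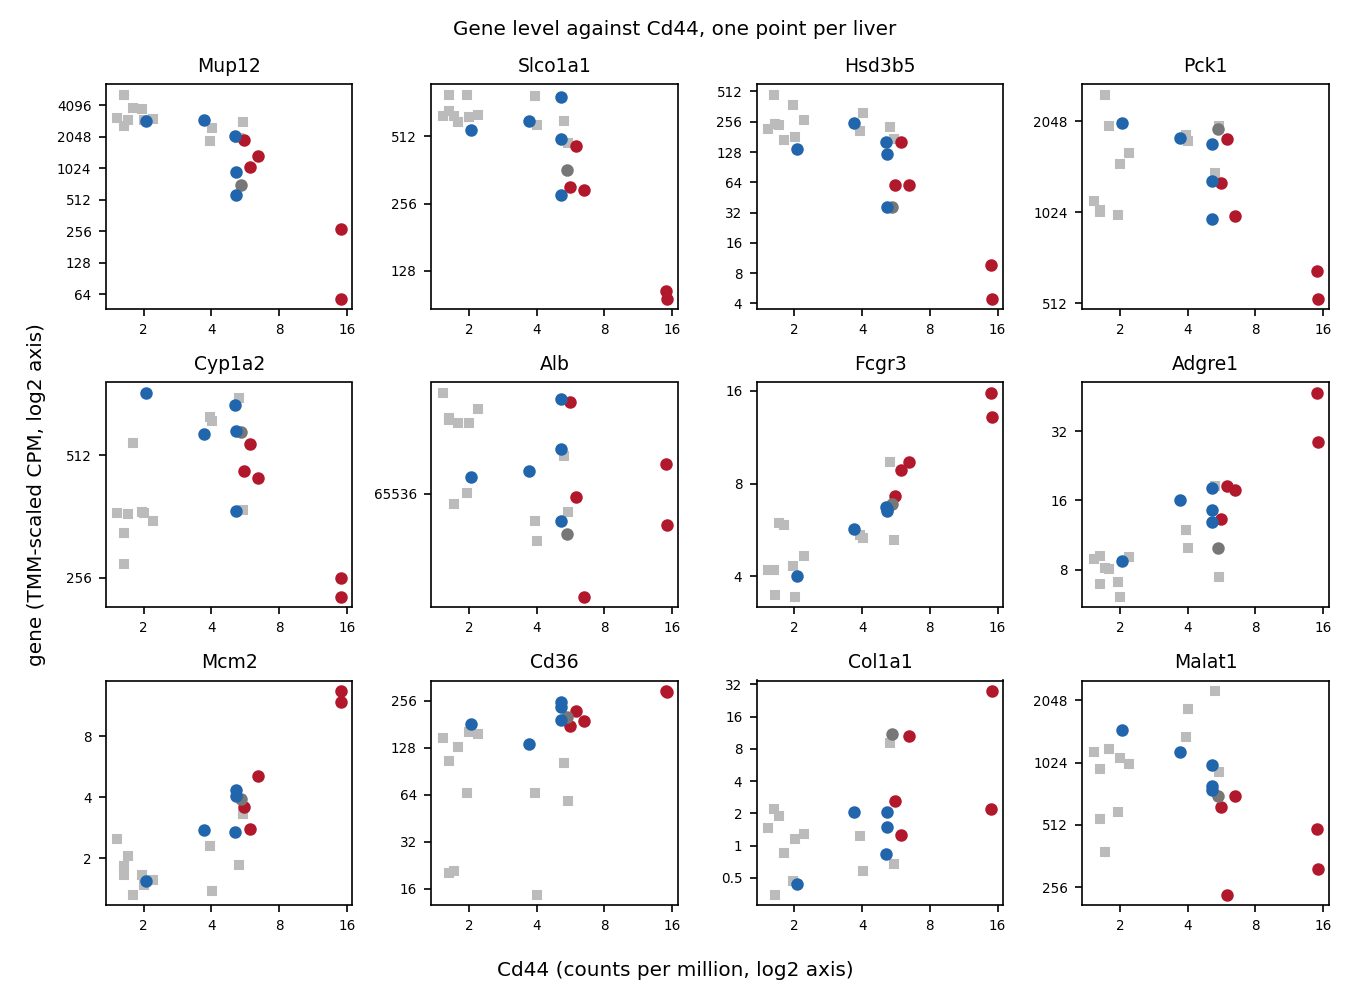
Level of 12 genes (TMM-scaled CPM, log2 axis) against Cd44 (CPM, log2 axis), one point per liver, with ALIOS livers as circles (red for the 5 highest, grey for N15, blue for the 5 lowest) and control diet livers as pale squares. Mup12, Slco1a1, Hsd3b5, Pck1 and Cyp1a2 were lowest in N17 and N19, Fcgr3, Adgre1 and Mcm2 were highest there, and Alb showed no order.

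Cytochrome P450 genes of families 1 to 3, which oxidise drugs, steroids and fatty acids, fell in 5 of 34 cases (14.7%) and rose in 0, with a median slope of -0.18. Cyp1a2, a pericentral enzyme that handles caffeine and aromatic amines, was at 229.7, 255, 451, 547 and 469.6 CPM in the high livers and 373, 588, 679, 576 and 730.0 CPM in the low livers (slope -0.59 ± 0.11, SE, adjusted p = 0.0046). Cyp2c29, Cyp2c67, Cyp2d22 and Cyp2u1 were the other members that fell, with slopes of -0.69, -0.72, -0.24 and -0.51. The anchors of the family gave no such call: Cyp2e1, the pericentral ethanol-oxidising enzyme, had a slope of -0.21, the periportal Cyp2f2 of -0.35 and the drug-induced Cyp3a11 of 0.56. Cyp3a11 was at 1811, 1154, 1384, 429 and 1235 CPM in the high and 1102, 1008, 526, 483 and 539 CPM in the low livers, which overlapped. The count of 5 became 0 without N17, 2 without N19 and 8 without N16 or N20. It was 1 with Malat1 as a further term and 12 with DESeq2, which also called 1 member higher. Without N17 and N19 the median was -0.09 and Cyp1a2 had a slope of -0.33.

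Genes of amino acid and glucose metabolism held few calls. Pck1, the rate-limiting enzyme of gluconeogenesis, was at 531, 654, 995, 1788 and 1279 CPM in the high livers. It was at 975, 1299, 1717, 1806 and 2019 CPM in the low livers (slope -0.68 ± 0.14, SE, adjusted p = 0.01), with N17 and N19 below every other ALIOS liver. Of 37 urea cycle and amino acid genes, 0 rose and 3 fell (8.11%), among them the histidine-degrading Hal (-0.32) and the serine dehydratase Sds (-0.44). Of 24 periportal genes, 4 fell (16.7%): Pck1, Hal, Sds and Slc7a2, the arginine carrier of hepatocytes (-0.27). Cps1, the first enzyme of the urea cycle, and G6pc, which releases glucose, did not pass the test, with slopes of -0.29 and -0.25. In the group of 23 genes of gluconeogenesis, glycogen and fructose, Pck1 fell and Pck2, the mitochondrial form, rose (0.68). Without N17 no gene of the urea cycle or the periportal list passed. The counts were 0 and 1 without N13, 1 and 3 without N19, and 5 and 4 without N20. With Malat1 as a further term 3 and 2 fell. With DESeq2 8 and 8 fell, and 1 periportal gene rose. Without N17 and N19 the slope of Pck1 was -0.38.

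Of 26 bile acid genes, 3 fell, namely Slco1a1, Cyp7b1 and Atp8b1, and Abcc4, an efflux pump of the sinusoidal membrane, rose and was at 3.11, 3.18, 1.70, 2.01 and 2.13 CPM in the high and 1.97, 1.43, 1.76, 1.41 and 1.17 CPM in the low livers (slope 0.53 ± 0.08, SE, adjusted p = 0.0022). The synthetic enzymes Cyp7a1, the rate-limiting one, and Cyp8b1 did not pass the test, with slopes of -0.25 and 0.34. Of 35 complement and coagulation genes 3 fell: F11 (-0.52), C8b (-0.73) and C4b (-0.39). Only 3 of the 35 had a slope above 0. Of 28 acute phase genes, 1 fell, Serpina3k (-0.85), and the acute phase markers Saa1 and Lcn2 had slopes of -0.17 and 0.59 without passing the test. Saa1 was at 347, 840.1, 2494, 1552 and 2238 CPM in the high livers and 132, 624, 527, 1395 and 799.7 CPM in the low livers, and N17 was below 4 of the 5 low livers. Without N17 the genes that fell in the bile acid and the complement lists went from 3 to 0 in each and Abcc4 still rose, and without N19 they went to 1 in each. Without N20 the complement list held 5. With Malat1 as a further term neither list held a call.

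The bulk of hepatocyte identity genes gave no call with edgeR. Of 25 secreted plasma proteins, 22 hepatocyte transcription factors, 22 apolipoprotein and lipoprotein assembly genes and 25 cholesterol genes, 0 passed in either direction, and their median slopes were -0.16, -0.05, -0.04 and 0.02. In the same order 3, 4, 8 and 16 members had a slope above 0, beside 7284 of 14449 genes, so most members of the first 2 lists leaned lower. These counts of signs were not tested. With DESeq2 3 of the secreted proteins and 2 of the transcription factors fell, and 1 lipoprotein gene rose and 1 fell. Alb, the albumin gene, was at 57884, 73783, 43763, 64623 and 93999 CPM in the high livers and 78064, 58998, 95045, 71757 and 70054 CPM in the low livers (slope -0.06 ± 0.15, SE, adjusted p = 0.84). Hnf4a, the central regulator of hepatocyte identity, was at 317, 355, 355, 404 and 475 CPM in the high and 365, 448, 505, 402 and 497 CPM in the low livers (slope -0.19 ± 0.07, SE, adjusted p = 0.092). The groups overlapped for both genes. Pooled over 18 hepatocyte lists, 25 of 433 genes fell (5.77%) and 13 rose (3.0%), the median slope was -0.05, and their summed level was 333009 to 449154 CPM in the high livers and 352569 to 424752 CPM in the low livers.

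Genes of lipid storage went the other way. Of 21 genes of PPAR-gamma and the lipid droplet, 7 rose (33.3%) and 0 fell, with a median slope of 0.32. Cd36, a fatty acid uptake receptor, was at 288, 296, 188, 219 and 175 CPM in the high and 251, 234, 192, 134 and 181 CPM in the low livers (slope 0.30 ± 0.08, SE, adjusted p = 0.03). Pparg, the nuclear receptor that drives fat storage, was at 18.6, 10.9, 7.79, 1.74 and 0.515 CPM in the high and 9.50, 2.08, 0.476, 0.826 and 0.804 CPM in the low livers (slope 1.52 ± 0.42, SE, adjusted p = 0.036), and N20, a low liver, was above N22. Plin2, a coat protein of lipid droplets, Fitm1, Lpl, Mogat1 and Anxa2 also rose, with slopes of 0.33, 0.64, 0.69, 1.24 and 0.76; Cd36, Plin2, Lpl and Anxa2 are also made by macrophages. Cidec, a droplet fusion protein, had a slope of 1.25 and missed the threshold (adjusted p = 0.081). Of 35 PPAR-alpha and fatty acid oxidation genes 2 rose (5.71%), Acot2 and Vnn1, while Ppara and Cpt1a had slopes of -0.06 and 0.16 and did not pass. A slope above 0 was held by 33 of the 35. The 7 calls of the PPAR-gamma list became 0 without N17, 2 without N13, 3 without N21, 4 without N14 and 0 with Malat1 as a further term, while the median slope was 0.31 without N17 and 0.34 without N17 and N19.

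De novo lipogenesis held few calls: of 24 genes, 19 had a slope above 0, with a median of 0.11 (-0.02 without N17 and N19), beside 7284 of 14449 genes with a slope above 0. In this list Scd2 rose, Mlxipl (ChREBP, the carbohydrate-sensing factor) fell, and Fasn and Scd1 did not pass, with slopes of 0.32 and 0.65. Scd1, the main desaturase of liver, was at 43160.1, 58456, 17542, 50159 and 11064 CPM in the high and 55014, 16022, 6689, 8996 and 18277 CPM in the low livers, which overlapped widely. Of 20 NRF2 targets, 5 rose (25%), among them Nqo1 (0.49) and Gstm1 (0.31), and 0 fell. Of these calls 1 held without N17, 1 without N13, 3 without N19 and 0 with Malat1 as a further term. The subunits of the respiratory chain coded in the nucleus, 42 genes, held 0 calls with a median slope of 0.03.

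**Figure D4:**
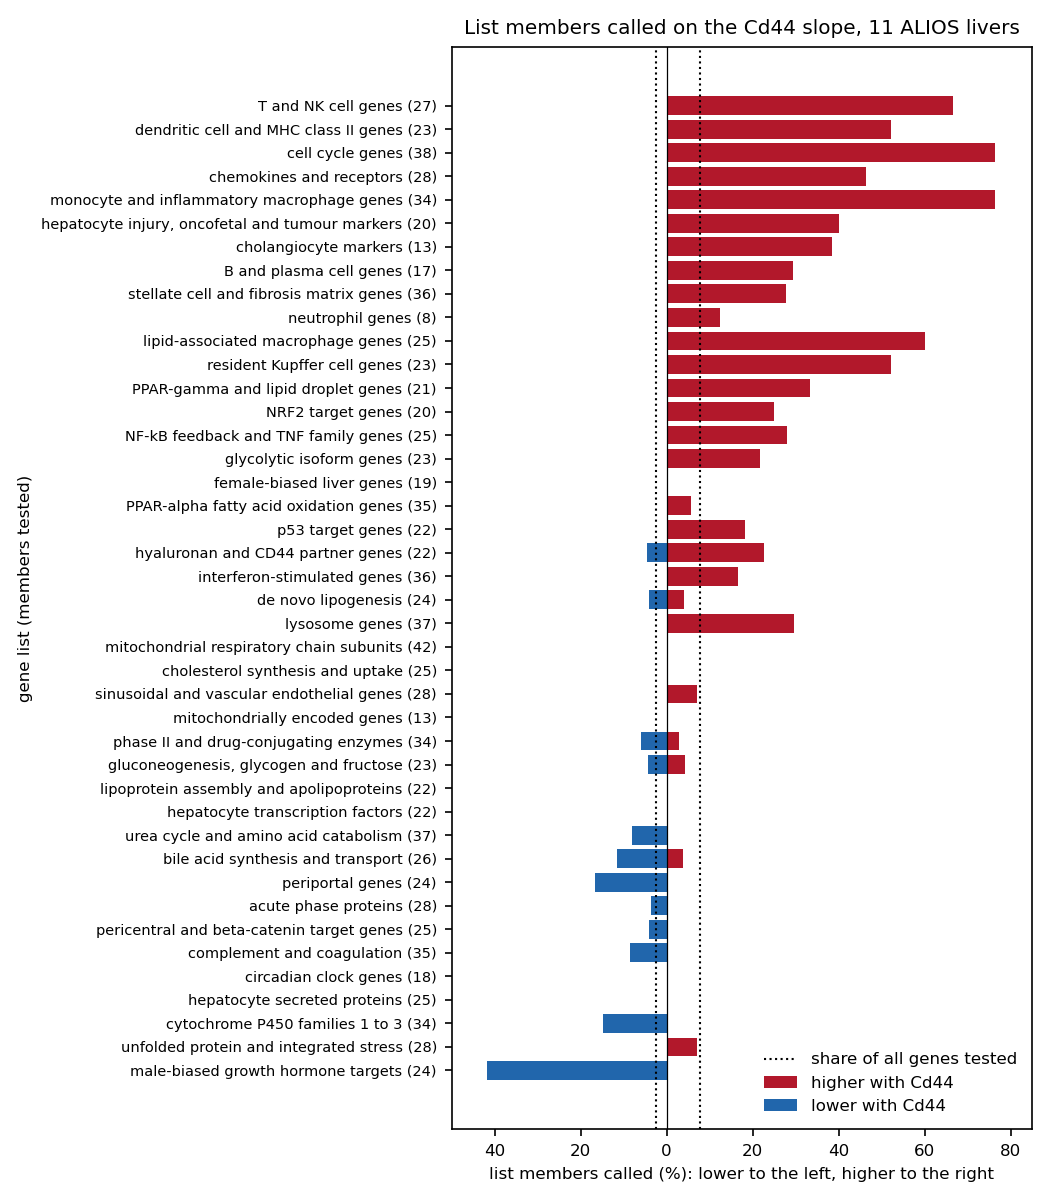
Share of the members of each gene list called on the Cd44 slope in 11 ALIOS livers (%), with lower to the left in blue and higher to the right in red; the number tested is in brackets and dotted lines mark the shares over all genes, 7.86% higher and 2.52% lower. Cell cycle (29 of 38) and monocyte genes (26 of 34) reach farthest to the right and male-biased growth hormone targets (10 of 24) farthest to the left.

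Leukocyte genes rose with Cd44. Pooled over 7 leukocyte lists, 88 of 156 genes rose (56.4%) and 0 fell, with a median slope of 0.61. The monocyte list had 26 of 34 members higher, the T and NK cell list 18 of 27, the lipid-associated macrophage list 15 of 25, the resident Kupffer cell list 12 of 23 and the dendritic cell and MHC class II list 12 of 23. The filter of this fit can keep a gene counted in only a few livers. At a mean count of at least 100 these were 19 of 22, 1 of 2, 13 of 22, 11 of 20 and 5 of 8. The T and NK cell calls thus rest mostly on genes with few counts. Fcgr3, an activating Fc receptor of myeloid cells, was at 13.1, 15.8, 9.42, 8.85 and 7.32 CPM in the high livers and 6.5, 6.64, 6.70, 5.68 and 4.02 CPM in the low livers (slope 0.68 ± 0.06, SE, adjusted p = 0.00012), with no overlap. Adgre1 (F4/80), a macrophage marker, was at 28.8, 47.0, 17.7, 18.5 and 13.3 CPM in the high and 14.6, 18.1, 12.9, 16.1 and 8.74 CPM in the low livers (slope 0.75 ± 0.11, SE, adjusted p = 0.0018). N19 was highest for Adgre1, and N23 was below 3 low livers. In the same order, these 5 lists held 12, 4, 5, 10 and 2 calls without N17, 15, 13, 5, 7 and 5 without N13, and 21, 17, 12, 7 and 12 without N19. The pooled count of 88 became 36 without N17 and 48 without N13. With Malat1 as a further term the 5 lists held 10, 4, 4, 6 and 1 calls, in the same order. Without N17 and N19 the pooled median slope was 0.65, with Fcgr3 at 0.68 and Adgre1 at 0.48, and none passed.

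The resident and recruited sides of the macrophage pool both held calls. Timd4, a marker of long-lived Kupffer cells, rose (slope 0.56 ± 0.14, SE, adjusted p = 0.022), and Clec4f, the most specific Kupffer gene, had a slope of 0.26 and did not pass. Cd68, Itgax (CD11c), Ccr2 (the receptor that brings monocytes into tissue) and Trem2 (a lipid receptor of lipid-associated macrophages) rose by 0.59, 1.25, 1.10 and 1.15 per doubling. Gpnmb, another marker of lipid-associated macrophages, was at 11.3, 1.82, 7.20, 0.559 and 0.137 CPM in the high and 1.15, 2.08, 0.0366, 0.0688 and 0.0670 CPM in the low livers and did not pass (adjusted p = 0.11). N17 and N22 were high and N23 was near 0. The T cell gene Cd3e rose (1.01) at levels of at most 1.91 CPM, H2-Aa, an MHC class II chain, rose (1.22), and the B cell gene Cd79a did not pass (0.40). Of 28 chemokines and receptors 13 rose, and of 36 interferon-stimulated genes 6 rose; without N17 these counts were 5 and 1, without N13 7 and 1, and without N19 13 and 3.

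With the Adgre1 level or that of Ptprc (CD45, carried by all leukocytes) as a further term in the slope fit, edgeR called 0 genes in either direction, hepatocyte genes included, with 1407 and 2148 genes at an unadjusted p under 0.05. Both genes rose with Cd44 themselves (slopes 0.75 ± 0.11 and 0.75 ± 0.09, SE), which leaves little of Cd44 apart from them in 11 livers. These fits therefore cannot tell which of the terms a gene follows. With the Adgre1 term and the Ptprc term in turn, the median slope of the male-biased list was -0.53 and -0.55. That of the P450 list was -0.07 and 0.00, that of the resident Kupffer cell list 0.05 and 0.37, and that of the cell cycle list 0.49 and 0.23. Adgre1 is itself a member of the Kupffer cell list of 23 genes tested, so its own slope in that fit is near 0 by construction. A single member can move the median of such a list only slightly. With the Adgre1 term the T and NK cell list had a median slope of 0.91. The dendritic cell and MHC class II list had 0.61 and the B and plasma cell list 0.10.

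Cell cycle genes rose about as often as monocyte genes. Of 38 tested, 29 rose (76.3%) and 0 fell, with a median slope of 0.82. Mcm2, a subunit of the helicase that opens DNA for replication, was at 11.8, 13.4, 5.08, 2.80 and 3.57 CPM in the high livers. It was at 4.36, 4.05, 2.71, 2.75 and 1.54 CPM in the low livers (slope 1.10 ± 0.10, SE, adjusted p = 0.00016), with N17 and N19 above all others and N18 and N23 within the low range. Mki67, carried by cycling cells, was at 5.83, 9.95, 3.55, 1.55 and 1.72 CPM in the high and 1.48, 4.11, 0.916, 1.31 and 1.0 CPM in the low livers (slope 1.15 ± 0.20, SE, adjusted p = 0.0041). Ccnd1, the cyclin of the G1 phase that hepatocytes also induce, was at 155, 104, 56.2, 34.4 and 62.1 CPM in the high and 44.0, 54.2, 35.8, 22.2 and 12.7 CPM in the low livers (slope 1.16 ± 0.11, SE, adjusted p = 0.00034). In control diet livers Ccnd1 ran from 12.1 to 25.9 CPM and Mcm2 from 1.32 to 3.33 CPM. The count of 29 became 18 without N17, 19 without N19 and 22 of 40 with Malat1 as a further term. Without both, the median slope of the list was 0.54, with Mcm2 at 0.89, Mki67 at 0.90 and Ccnd1 at 1.35, and none passed.

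The helicase genes Mcm2 to Mcm7 rose together, and their promoters are shown for the letters they share. RefSeq windows of 300 bases (250 before and 50 after the start site, GRCm38.p6) were at hand for 5 of the 6. The E2F-type spellings TTTCCCGC and TTTGGCGC were searched on both strands; 4 of the 5 windows held one or both, against 1.80% of the windows of 27025 genes, and among the 29 cell cycle genes that rose these 4 were the only ones of 23 with a window. The matching stretches are printed 5′ to 3′ on the gene's strand with up to 20 flanking bases inside the window, the match in capitals.
Mcm3 (chr1:20820263-20820313, minus strand): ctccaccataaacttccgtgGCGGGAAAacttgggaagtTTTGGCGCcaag
Mcm5 (chr8:75109340-75109387, plus strand): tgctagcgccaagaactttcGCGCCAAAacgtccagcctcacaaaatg
Mcm6 (chr1:128359725-128359835, minus strand): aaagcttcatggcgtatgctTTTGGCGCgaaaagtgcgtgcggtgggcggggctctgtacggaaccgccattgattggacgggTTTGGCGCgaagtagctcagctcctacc
Mcm7 (chr5:138172021-138172068, minus strand): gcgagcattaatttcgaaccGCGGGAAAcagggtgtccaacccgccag
For the male-biased genes that fell, the STAT5-type spelling TTCNNNGAA was held by 0 of 6 windows, against 9.55% of all, which says only that these letters are not in those windows. A match is a description of letters and not of a bound site.

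Stromal and duct genes rose in part. Of 36 stellate cell and fibrosis matrix genes 10 rose (27.8%), among them Col1a2 and Col3a1 (slopes 1.20 and 1.02), and 0 fell. With Malat1 as a further term 0 of 37 rose, with a median slope of 0.48. Col1a1, a chain of the main fibrillar collagen, was at 27.9, 2.18, 10.6, 1.25 and 2.61 CPM in the high and 2.06, 1.49, 0.843, 2.07 and 0.435 CPM in the low livers and missed the threshold (slope 1.61 ± 0.48, SE, adjusted p = 0.052). N17 and N22 carried most of the difference, and N19 was close to the highest low liver. Acta2, the marker of activated stellate cells, and Krt19, of bile ducts, did not pass (0.46 and 0.55), while 5 of 13 cholangiocyte markers rose, Spp1 (osteopontin, a ligand of CD44) and Epcam among them. Spp1 is also counted in the lipid-associated macrophage list and Epcam among the injury, oncofetal and tumour markers. Of 28 endothelial genes 2 rose, and Stab2, of sinusoidal endothelium, had a slope of -0.10. The stellate count of 10 became 1 without N17 (median slope 0.15, from 0.45), 1 without N13, 23 of 37 without N19 (0.67), 4 without any one of N14, N16 or N21 and 6 without any one of N18, N20 or N23. The cholangiocyte count of 5 became 0 without N17 or N13, 3 without N14, 8 without N19 and 0 with Malat1 as a further term. At a mean count of at least 100 it was 1 of 5, with a median slope of 0.08 in place of 0.57. The cholangiocyte calls thus rest mostly on genes with few counts.

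Of 20 hepatocyte injury, oncofetal and tumour markers 8 rose (40.0%), led by H19, an imprinted RNA of fetal liver, at 4.77, 2.18, 0.695, 1.12 and 0.447 CPM in the high and 0.756, 0.804, 0.293, 0.344 and 0.201 CPM in the low livers (slope 1.53 ± 0.19, SE, adjusted p = 0.00062). The count of 8 became 3 without N17 or N13, 5 without N14 and 2 with Malat1 as a further term. As count over column total, H19 was at 5.24 CPM in N17 and 2.28 CPM in N19. It ran from 0.406 to 5.24 CPM in the high livers and from 0.205 to 0.878 CPM in the low livers. In the 13 tumours of ALIOS mice without DEN it ran from 0.0667 to 689 CPM with a median of 11.3, a range that holds every liver of both groups. On the same scale Afp, Gpc3 and Igdcc4, tumour markers of liver, summed to 1.51 to 1.82 CPM in the high livers and 0.731 to 2.24 CPM in the low livers, against 6.51 to 762 CPM, median 442, in the tumours, and N17 and N19 held 1.76 and 1.82 CPM. The part of tumour tissue in these livers was not tested.

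Genes of the circadian clock were lower in the high Cd44 livers without passing the test. Of 18 tested, Cry2, Nr1d2, Per3 and Tef did not overlap between 5 and 5, all lower, beside 4.08% of all genes lower without overlap and 2.02% higher. Per3, a period gene, was at 44.2, 55.0, 29.1, 43.9 and 46.5 CPM in the high and 79.0, 69.4, 64.8, 56.6 and 90.5 CPM in the low livers (log2 fold change -0.71 ± 0.16, SE, adjusted p = 0.058). The median slope of the 18 was -0.14 and none passed. The time of day at which each liver was taken is not given in the labels, and its part was not tested. By the same count, leukocyte lists had 10 of 138 genes higher without overlap and 0 lower, and hepatocyte lists 1 of 432 higher (Slc51b) and 2 lower (Nr1i3 and Znrf3).

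Whether the same genes follow Cd44 on the control diet was asked of the 12 control diet livers, which share no library with the ALIOS livers. There the 5 highest against the 5 lowest gave 0 calls among 13723 genes with edgeR (0.0%), with 890 genes at an unadjusted p under 0.05, and DESeq2 gave 3 higher and 0 lower. On the slope, 89 of 14336 genes rose (0.621%) and 4 fell (0.0279%). Of the 1015 genes that rose on ALIOS diet and were tested on both, 60 also rose on control diet. That is 5.91% of the first list and 67.4% of the 89, with Ptprc, Cybb, Ccr2 and Itgal among the 60. A slope above 0 on control diet was held by 756 of the 1015 (74.5%, beside 47.1% of all genes). Among leukocyte list genes that rose on ALIOS diet it was 70 of 75, and among hepatocyte list genes 5 of 13. On control diet 9 of 36 interferon-stimulated genes and 6 of 32 monocyte genes rose, of which 3 and 5 had also risen on ALIOS diet. Of the 364 genes that fell on ALIOS diet 0 fell on control diet, and 88 had a slope below 0 there (24.2%, beside 52.9% of all genes). No hepatocyte list held a call on control diet, and the male-biased list had a median slope of -0.12 over a narrower range of Cd44.

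The difference between the diets was tested directly. In the contrast of 5 with 5, 21 of 14380 genes differed between the diets (0.146%), 1 with a higher and 20 with a lower difference on ALIOS diet. Of the slopes, 77 of 14966 were higher on ALIOS diet (0.514%) and 54 were lower (0.361%). The cell cycle list held 10 of these, all higher, out of 39 tested: the slope of Mcm2 was 1.10 on ALIOS and 0.22 on control diet (difference 0.87 ± 0.18, SE, adjusted p = 0.03), and that of Ccnd1 was 1.16 and -0.01 (difference 1.17, adjusted p = 0.017). Of 433 hepatocyte list genes 4 had a higher and 4 a lower slope on ALIOS diet. Of the lower ones, Mup1 (-0.88 against 0.49, adjusted p of the difference = 0.0028), Cyp1a2 (-0.59 against 0.44, 0.017) and Cyp2c67 (-0.72 against 0.26, 0.047) are named beside F11, while Hsd3b5 (0.079), Slco1a1 (0.057) and Pck1 (0.067) missed the threshold. The higher ones were Apoa4, an apolipoprotein (0.77), the glutathione transferase Gstm1, the glucuronosyltransferase Ugt1a5 and the pantetheinase Vnn1. Without N17 and N19 edgeR called 0 differences in the contrast and 0 in slope, with 2683 and 1631 genes at an unadjusted p under 0.05, and the difference in slope was 0.67 for Mcm2, 1.36 for Ccnd1, -1.16 for Mup1 and -0.77 for Cyp1a2. Of 165 leukocyte list genes, 0 differed in slope between the diets. With shares of 0.514% and 0.361% over all genes, few calls could fall in a list of this size. The count therefore does not show that these slopes were alike on both diets.

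**Figure D5:**
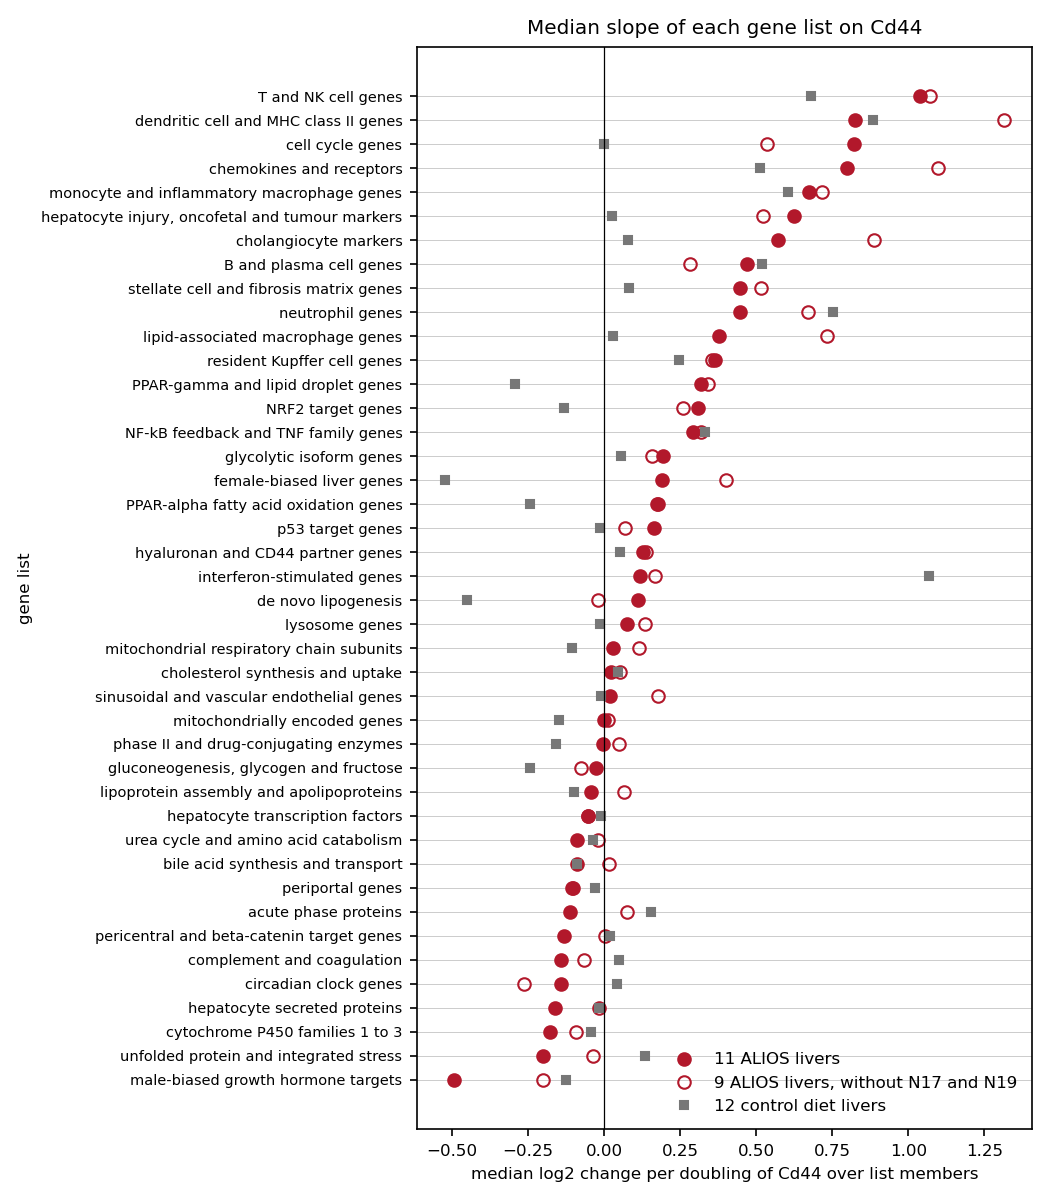
Median slope on Cd44 (log2 change per doubling) of the members of each gene list in 11 ALIOS livers (filled circles), in 9 ALIOS livers without N17 and N19 (open circles) and in 12 control diet livers (squares). Leukocyte lists keep positive medians without N17 and N19, while the male-biased list moves from -0.49 to -0.20, and the cell cycle list lies at 0.00 in control diet livers.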

How the data were processed

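RNA from whole liver, 10 to 20 mg of tissue, was sequenced by the study with a stranded mRNA kit and paired-end reads. The authors aligned reads with STAR to mm10 and counted them per gene with HTSeq (names also in the submitters' processing notes), and the deposited table holds raw counts for 45792 genes in 50 libraries. The strand setting of the counting is not given in the sources used here. Symbols and coordinates came from Gencode annotation of GRCm38.

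Livers were ranked on Cd44 count over column total. The members and the 46 gene lists were chosen with earlier results of these data known. Counts were tested with edgeR 4.0.16 (quasi-likelihood, TMM scaling, filterByExpr, Benjamini-Hochberg over all genes tested without Cd44 and the snRNA gene inside it), 5 against 5 as the main fit. An added term, log2 Cd44 CPM over all 11 ALIOS livers, was an alternative chosen with the design, and its own variants were added after seeing the data. The same tests ran on 12 control diet livers and on the difference between the diets, with alternatives in scaling, filter, tool (DESeq2 1.42.0), group size and livers left out. CPM printed are scaled by TMM over 23 non-tumour livers, except those of Cd44 and of the summed tumour markers. A call is an adjusted p under 0.05. Total counts of 27602194 to 34682875 put 1 count at about 0.03 CPM, so levels under 1 CPM rest on few counts. The code was tested on simulated data. Named genes were Cd44, fixed anchors and up to 10 called genes in each direction with the smallest p (8 higher and 10 lower). For these called genes the groups do not overlap and the symbol is not a Gm or Rik model. The 3 with the smallest p for the difference between the diets (A930004J17Rik, Atxn7 and Adamts7) were added. So were 23 genes chosen after their values were seen, beside further list members.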

Additional observations from a re-analysis of the deposited data

Results flagged for a closer look

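Single livers stood apart within the high or the low group in 5 of the 182 groups of 5 searched among the named genes, where chance gives about 9.1. In the high group, N18 was low for Lcn2, at 14.6 CPM, and N19 was high for Kdm5d, at 14.3 CPM. In the low group, N14 was high for Mki67, at 4.11 CPM, N20 was low for Cyp2c67, at 442 CPM, and N16 was low for Neat1, at 371 CPM.

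The change with Cd44 differed between the diets by a test of the difference itself for several named genes. In the contrast of 5 with 5, the log2 fold change on ALIOS diet minus that on control diet was -1.51 for Adamts7, -1.54 for Firre, -0.70 for Kdm5d, -0.81 for Chd7, -2.27 for A930004J17Rik and -0.89 for Atxn7. As a difference in slope, it was -1.16 for A930004J17Rik, -1.30 for Malat1, -1.38 for Mup1, -1.04 for Cyp1a2 and -0.98 for Cyp2c67. It was 0.77 for Apoa4, 0.80 for Ucp2, 0.87 for Mcm2, 1.08 for Mcm5, 1.17 for Ccnd1 and 3.25 for Hmmr. Leaving out N17 and N19 left none of these differences past the threshold. Hmmr, the hyaluronan-mediated motility receptor and a mitotic gene, was at most 1.24 CPM in the ALIOS livers, so its value rests on few counts.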

How the results depend on the processing

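Between the 5 highest and 5 lowest livers, 9 genes were higher and 78 lower, and the count moved with nearly every setting. It was 561 and 821 with DESeq2, 20 and 122 with RLE scaling, 0 and 4 with upper quartile scaling, 0 and 39 with column totals, 57 and 179 at a mean count of at least 100, and 5 higher without a filter (55 lower, within 1.5 times). It was 16 and 118 when ranked by TMM-scaled Cd44, 276 and 417 for 4 against 4, 309 and 149 for 3 against 3, 1135 and 364 with Cd44 as a continuous term, and 0 and 0 with Adgre1 as a covariate. Leaving out 1 liver gave 0 to 35 higher and 0 to 271 lower, and leaving out N17 and N19 gave 0 and 2. On the slope, 1135 genes were higher and 364 lower, 88 leukocyte list genes were higher and 25 hepatocyte list genes lower. Lower genes were 718 with DESeq2 (hepatocyte 55) and 177 with column totals. A mean count of at least 100 gave 543 higher and 172 lower (leukocyte 50), and Malat1 as a covariate gave 391 and 23 (leukocyte 28, hepatocyte 6). Adgre1 or Ptprc as a covariate, or leaving out N17 and N19, gave 0 for each of these counts. Leaving out 1 liver gave 396 to 1142 higher, 29 to 425 lower, 36 to 88 leukocyte and 1 to 33 hepatocyte calls, the lowest of each without N17 (N17: 396 and 29). In control diet livers the count of 0 became 3 higher with DESeq2, and 89 higher and 4 lower on the slope. For the difference between the diets, 1 higher and 20 lower became 240 and 520 with DESeq2, 16 and 118 at a mean count of at least 100, 41 and 49 for 4 against 4, 77 and 54 on the slope, and 0 and 0 without N17 and N19, in the contrast as on the slope. The cause of these changes was not tested. Of 3729 values of named genes under the alternatives, 0 called values changed sign and 102 uncalled values did. No paired analysis was possible because the replicate numbers of different groups name different livers and the livers compared share none. Genes under about 1 CPM, such as Hmmr and Gpnmb in most livers, are limited by depth.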
